A study of Homo sapiens with 24 samples.

Results

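Caki-1 cells treated with 1 µM dasatinib for 24 h were compared with Caki-1 cells given DMSO, the solvent of the drug. The comparison comprised 6 arrays, 3 of each group, out of the 24 arrays of the series. Members were chosen by their labels alone: cell line, agent and hours of treatment. Caki-1 is an established human line derived from a skin metastasis of a clear cell renal carcinoma. The other 18 arrays held Caki-1 cells treated with the same dose for 6 h or 12 h, and 769-P cells, an established line from a primary clear cell renal carcinoma, given DMSO or the same dose for 6, 12 or 24 h, each group with 3 arrays. Nothing in the labels gives either line a transgene, an edited gene or a second agent. The DMSO group carries no time, so that 24 h of drug cannot be told apart from hours in culture. The replicates are labelled as biological, but how the cultures were separated is not given. The p-values therefore measure the spread between replicate arrays, which may be partly technical. For this comparison that spread was pooled over all 12 Caki-1 arrays.

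Dasatinib blocks the ATP site of the SRC family, ABL, the ephrin receptors, the discoidin receptors, KIT, the PDGF receptors and several other kinases. SRC family kinases pass signals from integrins and growth factor receptors to focal adhesions, the ERK cascade and PI3K with AKT. Cells deprived of such signals commonly leave the cycle in G1, where retinoblastoma proteins hold the E2F factors that drive the replication genes, and the DREAM complex holds the genes of mitosis. AKT also keeps FOXO factors out of the nucleus, and mTORC1 restrains the factors that activate lysosomal genes. The question of the comparison, as far as the title of the series states it, was which cellular processes dasatinib altered in renal carcinoma cells.

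Signal was read on Affymetrix PrimeView arrays as log2 values, 1 probe set for each gene. An array gives no read depth, and the number of arrays limits the precision. The medians of the 6 arrays lay between 6.011 and 6.084. Pearson correlations over all probe sets were 0.9957 to 0.9971 between DMSO arrays and 0.9947 to 0.9959 between 24 h arrays, against 0.9654 to 0.9760 across the groups, and no 2 arrays were identical. Of the 10 renal epithelial markers on the array, 9 lay above the filter level of 5.38, KRT8, KRT18 and PAX8 among them, while EPCAM was below it. Defining markers of other lineages were lower in number above that level, with 7 of 13 for leukocytes, 4 of 11 for endothelium and 4 of 10 for fibroblasts. That level was passed by 12420 of the 18132 genes with a probe set. Above 6.06, the median of all probe set means in Caki-1, lay 7 renal epithelial, 3 leukocyte, 1 endothelial and 4 fibroblast markers.

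Of 18132 genes with a probe set, 12420 had a mean above the filter level over the 12 Caki-1 arrays and were tested with limma. At a Benjamini-Hochberg adjusted p under 0.05, 4083 genes rose (32.9%) and 3716 fell (29.9%), together 62.8% of those tested. The counts of every list below stand beside these shares, and several lists lie near them. Where a list below is given with no called rise or no called fall, limma gave no member that way at an unadjusted p under 0.05 either, except 1 kinetochore gene that was higher. The verbs rose and fell are used below for genes past that threshold, and each change is a log2 difference, 24 h minus DMSO, ± the standard error of the fit with n = 3 arrays in each group. Where another summary of a gene, the mean of all its probe sets, moved the change by more than 1.5 times, that value stands in parentheses. A range after a count or a median of a list gives its lowest and highest over 17 alternative settings, where these moved it by more than 1.5 times. The deposited values carry no detection call. Of the called genes, 223 had a group mean below the filter level, 151 rises from DMSO and 72 falls to 24 h, and these passed the filter through their brighter groups. For those named, the change counted from the filter level stands in parentheses as a lower bound for that probe set, and their place by size rests on dim signal. It is no bound for the gene, nor for a difference between the lines. At least 2-fold changes were fewer, 670 rises (5.39%) and 936 falls (7.54%), and 53.4% of the called genes changed by less than 1.5-fold. The falls reached further, with 200 genes down at least 4-fold against 97 up. In 66.8% of the genes the 3 arrays of 24 h did not overlap the 3 of DMSO, 35.9% above and 30.9% below. The median change over all genes tested was 0.08 and the median standard error 0.10. Because arrays were brought to a common level, less RNA per cell and a different mix of cells cannot be told apart in these values.

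**Figure D1:**
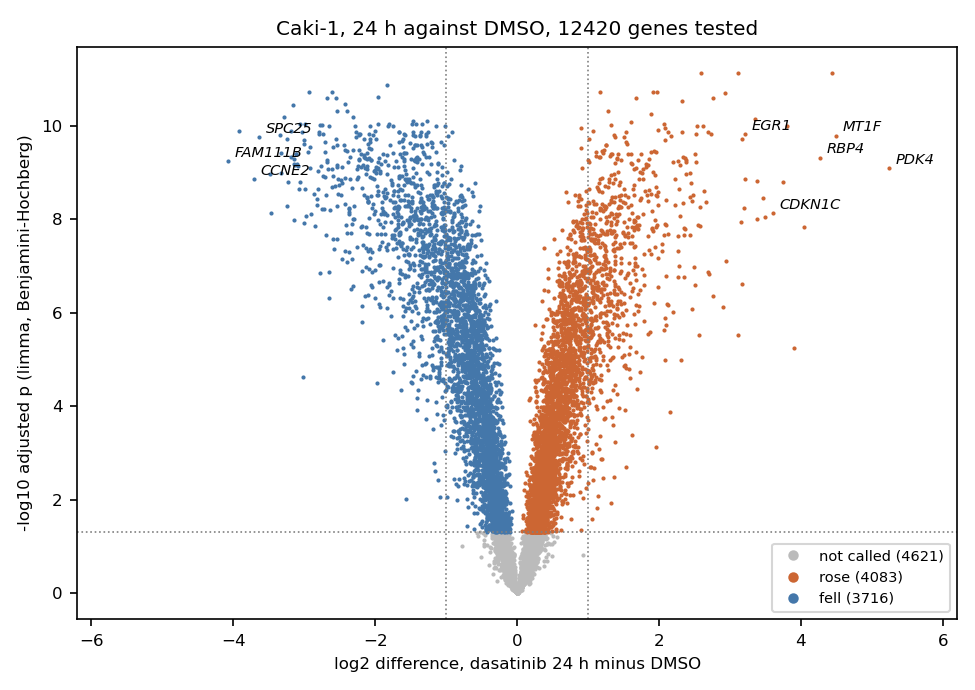
Each point is 1 of the 12420 genes tested; the x axis is the log2 difference between dasatinib 24 h and DMSO in Caki-1, and the y axis the -log10 adjusted p of limma. Dotted lines mark an adjusted p of 0.05 and 2-fold changes; 4083 genes rose (right), 3716 fell (left) and 4621 were not called, with PDK4 the largest rise and FAM111B the largest fall as deposited.

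The 10 largest rises and 10 largest falls were taken from called genes whose groups did not overlap. Their higher group mean also had to exceed 6.06, the median of all probe set means in Caki-1. The largest rise as deposited was that of PDK4, a mitochondrial kinase that shuts the pyruvate dehydrogenase complex. Its log2 signal was 4.74, 4.18 and 4.75 under DMSO and 9.54, 9.91 and 9.95 at 24 h. The 3 DMSO arrays lay below the filter level and all 24 h arrays far above it, without overlap. PDK4 rose by 5.24 ± 0.28 (3.03 as the mean of its probe sets, 4.42 from the filter level), with an adjusted p of 8.04e-10 in limma. For this probe set the change from the filter level was 21.4-fold, and the mean of the probe sets gave a smaller change.

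MT1F, a metal-binding metallothionein, read 7.77, 7.40 and 7.47 under DMSO and 12.21, 11.97 and 11.93 at 24 h. The groups did not overlap. The change was 4.50 ± 0.20, with an adjusted p of 1.63e-10 in limma. Probe sets of near-identical metallothionein genes can share signal, so the identity of the member that rose is uncertain.

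RBP4, the plasma carrier of retinol, read 8.30, 8.95 and 8.80 under DMSO and 12.79, 13.07 and 13.005 at 24 h. All treated arrays were above all DMSO arrays. It rose by 4.27 ± 0.22, with an adjusted p of 4.83e-10 in limma. GBP2, an interferon-inducible GTPase, rose by 4.43 ± 0.12 (4.26 from the filter level). AKR1C1, an aldo-keto reductase of steroids and carbonyls, rose by 4.04 ± 0.29. FGA, a chain of the clotting protein fibrinogen, rose by 3.80 ± 0.16. FGB, another chain of it, rose by 3.75 ± 0.22. FOXQ1, a forkhead factor, rose by 3.50 ± 0.24.

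CDH1, which encodes E-cadherin, read 5.02, 5.73 and 5.79 under DMSO and 8.60, 9.88 and 9.77 at 24 h. All treated arrays were above the DMSO arrays, and replicate 1 was the lowest array of each group. CDH1 rose by 3.90 ± 0.49 (2.07 as the mean of its probe sets), with an adjusted p of 5.82e-06 in limma.

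CDKN1C, the CDK inhibitor p57, completed the 10 largest rises and is taken up with its family.

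FAM111B, a protease-like protein of proliferating cells, had the largest fall as deposited. Its signal was 7.81, 8.02 and 8.01 under DMSO and 4.03, 3.71 and 3.88 at 24 h. All treated arrays lay below the filter level and all DMSO arrays above it. It fell by 4.07 ± 0.21 (-2.57 from the filter level, 5.93-fold for this probe set), with an adjusted p of 5.75e-10 in limma. ZNF367 fell by 3.92 ± 0.17 (-1.24 as the mean of its probe sets, -3.58 from the filter level), so that its probe sets differed widely. MYBL1, a MYB family transcription factor, fell by 3.46 ± 0.23. The other genes among the 10 largest falls were CCNE2, SPC25, CENPK, CDC6, CDC45, MCM10 and ORC6, all of the cell cycle.

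**Figure D2:**
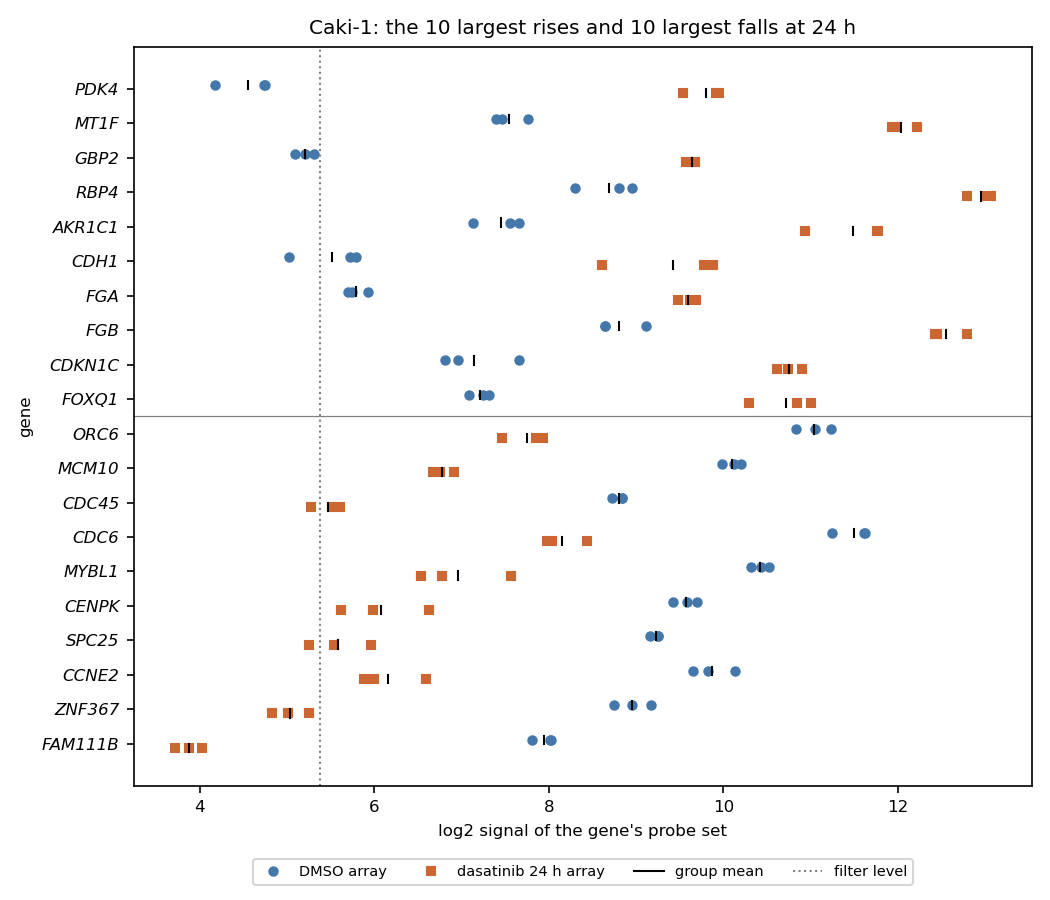
Log2 signal on each of the 3 DMSO arrays (circles) and 3 dasatinib 24 h arrays (squares) of Caki-1 for the 10 largest rises (above the line) and 10 largest falls (below it); vertical ticks are group means and the dotted line is the filter level of 5.38. The 20 genes were taken from those whose groups do not overlap. The DMSO arrays of PDK4 and GBP2 and the treated arrays of FAM111B and ZNF367 lie under the filter level.

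DNA replication genes fell almost as a body. Of 27 tested genes of origin licensing and the replicative helicase, 25 fell and 0 rose, with a median change of -1.98, beside 29.9% fallen and a median of 0.08 over all genes tested. CDC6, which loads the MCM helicase at origins, read 11.25, 11.62 and 11.61 under DMSO and 8.44, 8.03 and 7.98 at 24 h. The treated arrays were all lower than the DMSO arrays. It fell by 3.34 ± 0.15, with an adjusted p of 1.58e-10 in limma. CDC45, a subunit of the active helicase, fell by 3.33 ± 0.18. MCM10, which binds that helicase, fell by 3.32 ± 0.16. ORC6 of the origin recognition complex fell by 3.29 ± 0.12.

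Among 32 DNA polymerase and fork genes 30 fell, with a median of -1.44, and POLD4 alone rose. POLE2, a subunit of the leading strand polymerase, fell by 3.07 ± 0.18. CLSPN, the fork checkpoint mediator claspin, fell by 2.78 ± 0.25 (-1.72 as the mean of its probe sets, -1.78 from the filter level). RFC3 of the clamp loader fell by 2.67 ± 0.14 (-1.78 as the mean of its probe sets). FEN1, the flap endonuclease of Okazaki fragments, fell by 2.61 ± 0.08. POLD4, the smallest subunit of polymerase delta, went the other way and rose by 0.97 ± 0.10.

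Genes that supply nucleotides followed, 25 of 28 fallen and 1 (range 1 to 2) risen with a median of -1.33. RRM2, the regulated subunit of ribonucleotide reductase, fell by 3.09 ± 0.16. TYMS, thymidylate synthase, fell by 1.96 ± 0.11. CTPS1, which makes CTP, fell by 2.12 ± 0.10. The risen gene was SHMT1, a cytosolic serine hydroxymethyltransferase, which rose by 0.70 ± 0.06.

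Genes of recombination, the Fanconi pathway and the checkpoints fell in 27 of 32 cases, with a median of -1.09. BLM, a RecQ helicase, fell by 3.12 ± 0.16. EXO1, an end-resecting exonuclease, fell by 3.06 ± 0.12. ATM, the kinase that answers broken DNA strands, stood against them and rose by 1.15 ± 0.07 (0.53 as the mean of its probe sets). CHEK2 was the other called rise, at 0.40 ± 0.11 (0.16 as the mean of its probe sets), a call lost with the mean of its probe sets.

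The chromatin and nuclear lamina genes of dividing cells all fell, 23 of 23, with a median of -1.45. UHRF1, which guides maintenance DNA methylation, fell by 3.16 ± 0.11 (-1.64 as the mean of its probe sets). HELLS, a chromatin remodeller of the same process, fell by 3.15 ± 0.22. LMNB1, the lamin B1 of the nuclear envelope, fell by 2.10 ± 0.10 (-1.79 from the filter level).

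Mitotic genes had the lowest medians of the gene lists. Of 54 kinetochore, spindle and chromosome structure genes, 53 fell and none rose, with a median of -2.20. In 53 all treated arrays were below all DMSO arrays, beside 30.9% of all genes tested. SPC25, a subunit of the NDC80 complex that grips microtubules, read 9.26, 9.16 and 9.25 under DMSO and 5.96, 5.25 and 5.54 at 24 h. The DMSO arrays were tightly placed, and the treated arrays fell to about the filter level. SPC25 fell by 3.64 ± 0.16, a 12.4-fold change with an adjusted p of 1.78e-10 in limma. NUF2, of the same complex, fell by 2.91 ± 0.16. CENPK, a centromere protein, fell by 3.49 ± 0.19. ANLN, the actin-binding anillin of the cleavage furrow, fell by 3.06 ± 0.18.

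Mitotic kinases, cyclins and exit genes fell in 26 of 27 cases, with a median of -2.06. CDK1, the kinase that starts mitosis, read 12.05, 12.04 and 12.06 under DMSO and 9.47, 9.15 and 9.31 at 24 h. Its DMSO arrays were closely placed, and all treated arrays were far below them. CDK1 fell by 2.74 ± 0.12, a 6.68-fold change with an adjusted p of 1.48e-10 in limma. TTK, the spindle checkpoint kinase, fell by 2.72 ± 0.18. BUB1B, the checkpoint protein BubR1, fell by 2.69 ± 0.20. MAD2L1, which it works with, fell by 2.65 ± 0.11.

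Promoters of these lists were read from RefSeq windows on GRCh38.p14, of which the 250 bases before the start were searched on both strands and 10132 of the 12420 tested genes were matched by symbol. The cell cycle homology region, bound by the DREAM complex and the MYB-MuvB activator, was searched as TTTGAA and, as its second form, TTTAAA. Its letters stood in 10 of 19 matched promoters of the mitotic kinase list, 23 of 49 of the kinetochore list and 10 of 19 of the chromatin list, against 14.3% of promoters of all genes tested and 22.1% of the whole table. The licensing list had 1 of 23. Lists with no part in mitosis could be as high, such as 4 of 8 for complement genes, most of which rose. The E2F element was searched as TTGGCGC, as its variant TTCGCGC and as the further variant TTCCCGC. Such letters stood in 11 of 27 of the polymerase list, 9 of 23 of the licensing list and 8 of 16 of the E2F family, against 15.1% of all genes tested and 9.5% of the table. Lists with no part in replication could be as high, such as 8 of 22 for cholesterol genes. A match is a description of letters, not a site in use. The windows printed here show where the letters fall in fallen genes, and they were chosen after the changes and matches had been seen. Each runs 5′ to 3′ toward the gene, with the matched letters, on either strand, in capitals. The SPC25 window is chr2:168890652-168890680, minus strand, that of BUB1B chr15:40161026-40161068, plus strand, that of KIF20A chr5:138179051-138179096, plus strand, and that of KIF14 chr1:200620924-200620969, minus strand. The first 2 hold the TTTGAA form and the other 2 the TTTAAA form.
SPC25: ttaTTTGAAgccgataaatgacttgtcgt
BUB1B: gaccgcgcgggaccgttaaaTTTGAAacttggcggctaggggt
KIF20A: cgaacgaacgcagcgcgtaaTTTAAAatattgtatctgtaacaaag
KIF14: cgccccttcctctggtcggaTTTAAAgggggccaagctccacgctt

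For the E2F letters the windows are those of RFC3 (chr13:33818074-33818120, plus strand), CDC25A (chr3:48188431-48188480, minus strand) and E2F1 (chr20:33686386-33686424, minus strand). In CDC25A a pair of matches overlap on opposite strands. RFC3 carries the letters of the reverse strand.
RFC3: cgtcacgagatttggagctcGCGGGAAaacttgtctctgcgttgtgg
CDC25A: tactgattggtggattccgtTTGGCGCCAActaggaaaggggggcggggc
E2F1: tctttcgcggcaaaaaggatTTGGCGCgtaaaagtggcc

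The regulators of entry into the cycle were taken by class. All 10 tested G1 cyclins and partners fell, with a median of -1.76. CCNE2, cyclin E2, read 9.65, 9.82 and 10.14 under DMSO and 6.60, 5.996 and 5.88 at 24 h. The treated arrays were all far below the DMSO arrays. CCNE2 fell by 3.71 ± 0.21, with an adjusted p of 1.39e-09 in limma. Its relative CCNE1 fell by 1.71 ± 0.12. The D cyclins, which answer growth factors, fell too. CCND1 fell by 1.81 ± 0.17. CCND3 fell by 0.78 ± 0.10. Of the kinases, CDK2, the partner of cyclin E, fell by 1.55 ± 0.09. CDK4, a partner of the D cyclins, fell by 0.76 ± 0.07. CDK6, the other such partner, fell by 0.54 ± 0.08. CDC25A, the phosphatase that frees CDK2, fell by 2.92 ± 0.14. SKP2, the ubiquitin ligase subunit that marks p27 for destruction, fell by 2.37 ± 0.16 (-1.38 as the mean of its probe sets, -2.25 from the filter level). CKS1B, its cofactor, fell by 2.53 ± 0.09.

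Of 6 CDK inhibitors tested, 3 rose and 2 (range 1 to 2) fell. CDKN1C, encoding p57, read 7.65, 6.96 and 6.81 under DMSO and 10.90, 10.61 and 10.74 at 24 h. The groups were far apart, though the DMSO arrays were spread more than the treated ones. It rose by 3.61 ± 0.24, a 12.2-fold change with an adjusted p of 7.52e-09 in limma. CDKN1B, encoding p27, rose by 0.50 ± 0.07. CDKN1A, encoding p21, rose by 0.25 ± 0.07. CDKN2A was not called, at 0.25 ± 0.13. CDKN2D, encoding p19INK4D, fell by 0.39 ± 0.14, a call lost when DMSO replicate 1 or 24 h replicate 3 was left out. CDKN3, a phosphatase of dividing cells counted with these inhibitors, fell by 2.15 ± 0.11.

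In the E2F and retinoblastoma family 15 of 19 fell and RBL2 alone rose. The atypical repressors were among the falls: E2F8 fell by 3.24 ± 0.21 (-2.10 as the mean of its probe sets, -2.72 from the filter level). E2F7 fell by 2.999 ± 0.21 (-1.35 as the mean of its probe sets). The activators fell with them. FOXM1, the activator of late cycle genes, fell by 2.12 ± 0.15 (-1.37 as the mean of its probe sets). LIN9, of the MuvB core, fell by 1.90 ± 0.13. E2F1, the best known activator, fell by 1.504 ± 0.13. MYBL2, which turns MuvB into an activator, fell by 1.46 ± 0.14. TFDP1, the DNA-binding partner of the E2Fs, fell by 1.05 ± 0.07.

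The remaining members changed less. E2F2 fell by 1.04 ± 0.12 (-0.53 as the mean of its probe sets). E2F3 fell by 0.52 ± 0.09. E2F4, the E2F of the DREAM complex, fell by 0.64 ± 0.08. E2F6 fell by 0.39 ± 0.11 (-0.76 as the mean of its probe sets). LIN52 of MuvB fell by 0.62 ± 0.17 (-0.31 as the mean of its probe sets), a change of -0.39 without 24 h replicate 2. For RBL1, LIN37 and TFDP2 the falls of 0.48 ± 0.16 (-1.01 as the mean of its probe sets), 0.35 ± 0.14 (-0.09 as the mean of its probe sets) and 0.24 ± 0.09 were each lost when a single array was left out, DMSO replicate 1 among them in every case. RB1 was not called, at -0.26 ± 0.12. LIN54 and E2F5 were not called either. RBL2, encoding p130, the pocket protein of quiescent cells, rose by 0.58 ± 0.09.

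**Figure D3:**
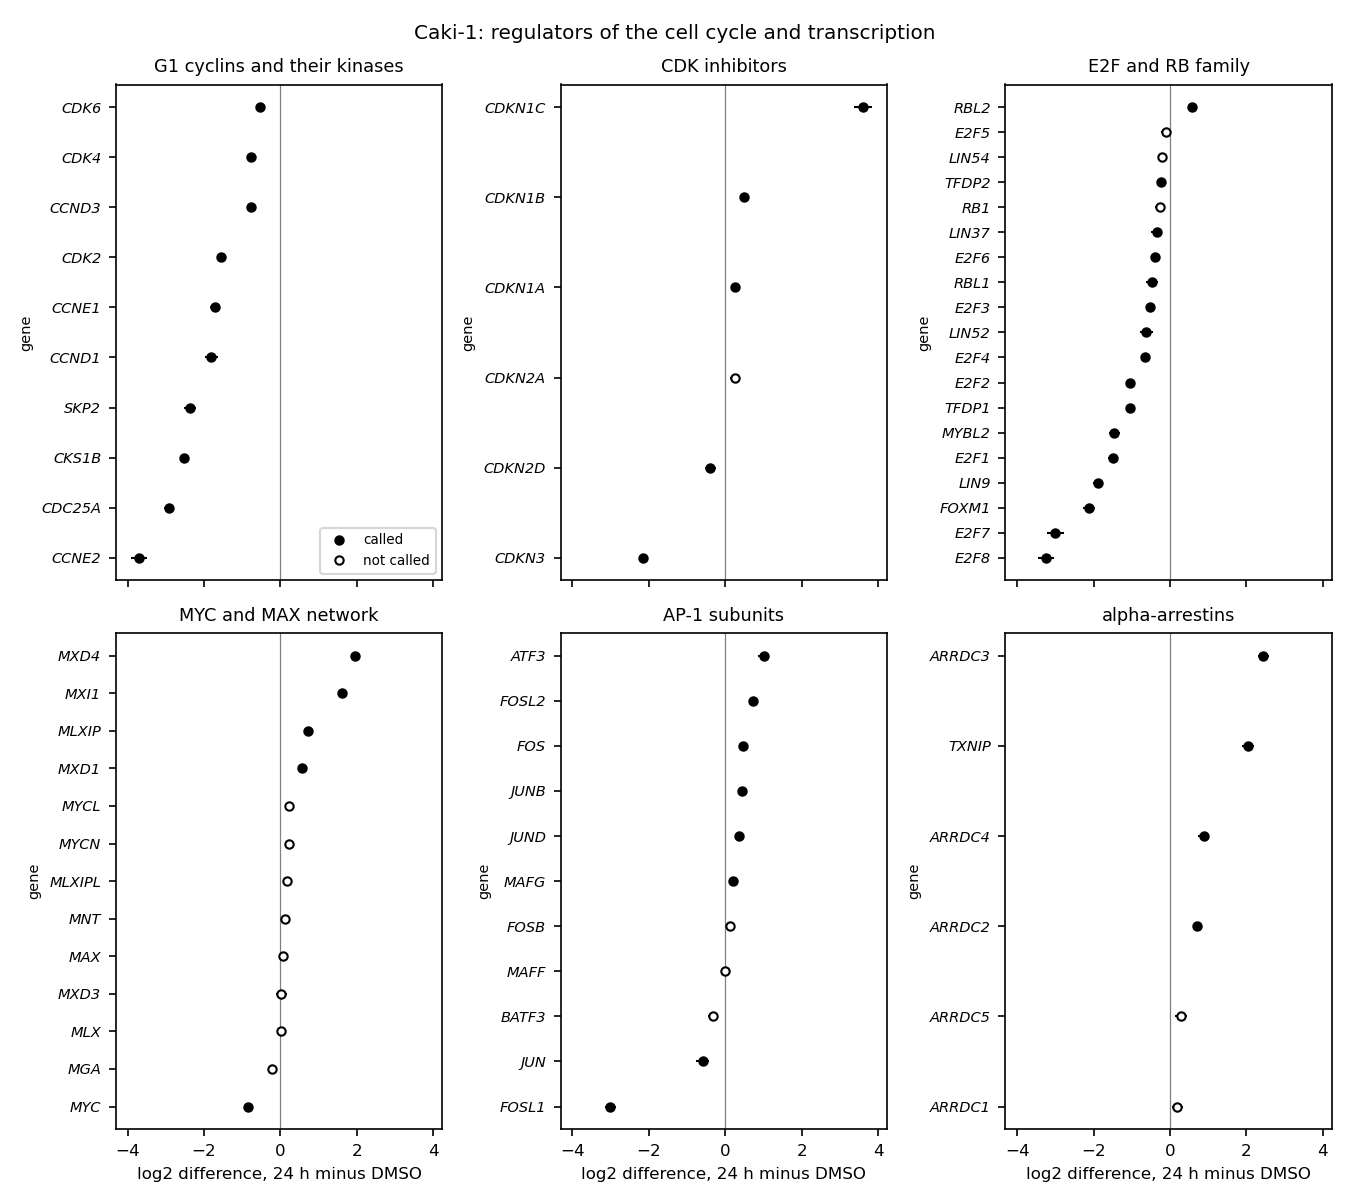
Log2 difference, dasatinib 24 h minus DMSO, of every tested member of 6 small gene lists in Caki-1; bars are the standard error of the fit and filled points are called at an adjusted p under 0.05. All 10 G1 cyclins and partners lie left of 0, CDKN1C is the far right point among the CDK inhibitors, and MXD4 and MXI1 lie opposite MYC.

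MYC and its network also split. MYC, a driver of ribosome building and growth, read 11.89, 12.03 and 12.06 under DMSO and 11.28, 11.03 and 11.11 at 24 h. All treated arrays were below the DMSO arrays. MYC fell by 0.85 ± 0.11, with an adjusted p of 6.21e-06 in limma. MXD4, which competes with MYC for its partner MAX, rose by 1.96 ± 0.12 (1.23 as the mean of its probe sets). MXI1, another competitor, rose by 1.61 ± 0.10. MXD1 rose by 0.56 ± 0.11 (0.29 as the mean of its probe sets). MLXIP, a glucose-sensing relative, rose by 0.72 ± 0.09 (0.35 as the mean of its probe sets). MAX itself was not called, at 0.06 ± 0.09, nor were MGA, MNT, MXD3, MYCL, MYCN, MLX and MLXIPL.

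Genes whose products assemble ribosomes were counted apart from those of the ribosomal proteins themselves. Of 38 genes of the small subunit processome 35 fell and none rose, with a median of -0.87. UTP15 fell by 2.33 ± 0.16. UTP20 fell by 1.91 ± 0.13. Of 37 pre-60S assembly factors 35 fell and none rose, with a median of -0.92. LYAR, a nucleolar growth regulator, fell by 2.32 ± 0.09. NOP16 fell by 2.12 ± 0.13 (-1.38 as the mean of its probe sets). All 19 genes of the box C/D and H/ACA particles fell, with a median of -0.96. TCOF1, the treacle protein, fell by 1.65 ± 0.10 (-0.88 as the mean of its probe sets). NOP56 fell by 1.42 ± 0.07.

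RNA polymerases I and III had 16 falls and 3 rises among 25 genes. POLR3G, a polymerase III subunit of proliferating cells, fell by 2.99 ± 0.18 (-1.69 as the mean of its probe sets). POLR1A, the large subunit of polymerase I, fell by 1.75 ± 0.11 (-1.08 as the mean of its probe sets). MAF1, the repressor of polymerase III, rose by 0.34 ± 0.08. Of 65 cytosolic ribosomal proteins 14 fell and 6 rose, with a median of -0.03 (range -0.08 to -0.01), and over the 17 alternative settings the falls ranged from 5 to 33 and the rises from 1 to 13. RPL35A fell by 1.35 ± 0.09 (-0.71 as the mean of its probe sets), apart from the others. RPS9 rose by 0.35 ± 0.04. Ribosomal proteins have many pseudogene copies that can share probes.

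The mitochondrial ribosome fell in 68 of 74 members, with a median of -0.58. MRPL42 fell by 1.67 ± 0.11. MRPL12 fell by 1.30 ± 0.09. Cytosolic aminoacyl-tRNA synthetases fell in 15 of 19 cases. FARSB, the phenylalanyl enzyme, fell by 1.81 ± 0.07. Among 42 translation factors 23 fell and 11 rose. EIF4E, the cap-binding protein, fell by 1.12 ± 0.06. EIF4E3, a relative that binds the cap in its own way, rose by 3.15 ± 0.22. EIF4EBP1, an mTORC1-regulated inhibitor of EIF4E, fell by 1.26 ± 0.07.

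Protein quality control, nuclear transport and splicing genes were counted next. Of 29 proteasome genes 28 fell and none rose, with a median of -0.73. PSME3, a nuclear proteasome activator, fell by 1.87 ± 0.11 (-1.23 as the mean of its probe sets). PSMD14, the deubiquitinase of the lid, fell by 1.33 ± 0.10. Cytosolic chaperones fell in 23 of 30 cases. HSP90AA1, the inducible HSP90, fell by 1.37 ± 0.12. CRYAB, a small heat shock protein, rose by 0.99 ± 0.27 (0.44 as the mean of its probe sets). Mitochondrial import and chaperone genes fell in 27 of 29. HSPE1, a mitochondrial co-chaperonin, fell by 1.73 ± 0.09.

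The nuclear pore and karyopherin list had 43 falls among 47 genes, with a median of -0.79. NDC1, a pore membrane protein, fell by 2.03 ± 0.09. RANBP1, which helps RAN release its cargo, fell by 1.94 ± 0.11 (-1.20 as the mean of its probe sets). The spliceosome core fell in 36 of 44 cases, with a median of -0.63. SNRPD1, an Sm protein, fell by 1.46 ± 0.06.

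Respiratory chain genes went in either direction. Of 36 complex I genes 17 fell and 7 rose, with a median of -0.08 (range -0.13 to -0.01). Of 37 genes of the other complexes 17 fell and 10 rose, a count of rises that ranged from 5 to 11 over the alternative settings. CYCS, cytochrome c, fell by 1.36 ± 0.06.

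FOXO factors and their targets rose, 26 of 34 against 32.9% of all genes tested, with 4 falls and a median of 0.98 (range 0.50 to 1.03). FOXO1 read 8.06, 7.70 and 7.66 under DMSO and 10.93, 10.90 and 10.96 at 24 h. All 24 h arrays were above all DMSO arrays. FOXO1 rose by 3.12 ± 0.09 (1.81 as the mean of its probe sets), with an adjusted p of 7.5e-12 in limma. Among receptors that FOXO factors are known to raise, ERBB3, a partner of ERBB2, rose by 2.27 ± 0.20 (1.19 as the mean of its probe sets). INSR, the insulin receptor, rose by 1.48 ± 0.16 (0.65 as the mean of its probe sets, 0.78 from the filter level). IGF1R rose by 0.85 ± 0.11 (0.40 as the mean of its probe sets). IRS1, the docking protein of those receptors, fell by 1.05 ± 0.10 (-0.55 as the mean of its probe sets).

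Targets with roles in metabolism and death were included. PPARGC1A, a coactivator of mitochondrial genes, rose by 3.21 ± 0.18 (1.54 as the mean of its probe sets, 2.85 from the filter level). KLHL24, a substrate adaptor of a ubiquitin ligase, rose by 3.38 ± 0.19. TNFSF10, the death ligand TRAIL, rose by 2.26 ± 0.12. BCL2L11, the death-promoting protein BIM, rose by 1.33 ± 0.08 (0.50 as the mean of its probe sets). PIK3IP1, an inhibitor of PI3K, rose by 1.15 ± 0.14 (0.33 as the mean of its probe sets). GADD45B, a stress protein, fell by 0.92 ± 0.08 (-0.39 as the mean of its probe sets). The FOXO letters, GTAAACA and the related form TAAACAA, stood in 3 of 27 matched promoters of this list, and in 3.2% of all genes tested. Other lists were higher, with 3 of 14 for the liver-type secreted proteins and 3 of 14 for the IGF axis.

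The alpha-arrestins, which send membrane transporters for breakdown, had 4 rises among 6 genes and no fall. ARRDC3, which binds beta-adrenergic receptors, rose by 2.44 ± 0.15. TXNIP, which also binds thioredoxin and limits glucose uptake, rose by 2.04 ± 0.16. ARRDC4 rose by 0.88 ± 0.15 (0.49 as the mean of its probe sets). ARRDC2 rose by 0.70 ± 0.10. ARRDC1 and ARRDC5 were not called.

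Genes of pyruvate entry to mitochondria went both ways, 6 up and 5 down among 13. Beside PDK4, the kinases PDK1 and PDK2 rose: PDK1 rose by 0.70 ± 0.17 (0.35 as the mean of its probe sets). PDK2 rose by 0.64 ± 0.12 (0.38 as the mean of its probe sets). Subunits of the complex that they inhibit fell, though DLD, another subunit, was not called: PDHA1 fell by 0.34 ± 0.06. PDHB fell by 0.29 ± 0.08. DLAT fell by 0.32 ± 0.09 (-0.64 as the mean of its probe sets). PDHX fell by 0.46 ± 0.06. PDP1, the phosphatase that reactivates the complex, fell by 0.39 ± 0.08 (-0.25 as the mean of its probe sets). MPC2 of the mitochondrial pyruvate carrier rose by 0.52 ± 0.07. MPC1 and PC were called at 0.33 ± 0.14 and 0.24 ± 0.10 (0.84 as the mean of its probe sets), calls that several left-out arrays removed, and DLD and PCK2 were not called.

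Glycolysis had 7 rises and 5 falls among 21 genes, and the rises ranged from 4 to 8 over the alternative settings. The shares over all genes tested were 32.9% risen and 29.9% fallen. SLC2A1, the glucose carrier GLUT1, fell by 1.47 ± 0.13. ALDOC, an aldolase, rose by 1.29 ± 0.13 (0.66 as the mean of its probe sets). PFKFB4, which tunes phosphofructokinase, rose by 1.06 ± 0.28 (0.37 as the mean of its probe sets). Hypoxia targets rose in 19 of 28 cases, with a median of 0.60. NDRG1 rose by 3.47 ± 0.22 (1.77 as the mean of its probe sets). CA12, a membrane carbonic anhydrase, rose by 2.35 ± 0.21. DDIT4, an inhibitor of mTORC1, rose by 2.08 ± 0.16. LOX, which crosslinks collagen, rose by 1.52 ± 0.26. SLC2A1, also a member of this list, is among its 3 falls.

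The PI3K, mTOR and AMPK list had 24 rises and 13 falls among 46. DDIT4L, a relative of DDIT4, rose by 3.38 ± 0.23. SESN2, an amino acid sensor upstream of mTORC1, rose by 0.94 ± 0.08. AKT1 fell by 0.79 ± 0.12 (-0.33 as the mean of its probe sets). INPP4B, a phosphoinositide phosphatase, fell by 1.54 ± 0.13.

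Lysosomal genes rose. Of 39 hydrolases 31 rose and 3 fell, with a median of 0.70. CTSF, the cysteine protease cathepsin F, read 6.16, 6.32 and 5.62 under DMSO and 8.58, 8.51 and 8.52 at 24 h. The groups were far apart. CTSF rose by 2.503 ± 0.24, with an adjusted p of 2.58e-07 in limma. FUCA1, an alpha-fucosidase, rose by 2.93 ± 0.10. HGSNAT, which acetylates heparan sulfate for its breakdown, rose by 1.96 ± 0.14 (0.85 as the mean of its probe sets). MANBA, a beta-mannosidase, rose by 1.70 ± 0.12. GLA, alpha-galactosidase A, fell by 0.54 ± 0.06.

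Of 32 lysosomal membrane and proton pump genes 23 rose, with a median of 0.29. NPC1, the cholesterol exporter, rose by 1.97 ± 0.14. ATP6AP1, an accessory subunit of the pump, rose by 0.82 ± 0.07. Autophagy genes rose in 28 of 40 cases, with a median of 0.36. GABARAPL1, an ATG8 family protein, rose by 2.52 ± 0.11 (1.51 as the mean of its probe sets). TP53INP1 rose by 2.36 ± 0.12 (1.30 as the mean of its probe sets). WIPI1, which reads phosphoinositides on forming autophagosomes, rose by 1.66 ± 0.12. SQSTM1, the cargo receptor p62, rose by 1.01 ± 0.05. ATG3, the conjugating enzyme of the ATG8 proteins, fell by 0.80 ± 0.06. ATG5 fell by 0.38 ± 0.07.

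The letters TCACGTG, part of the site that TFEB and TFE3 read on lysosomal genes, stood in 8 of 26 matched hydrolase promoters and 7 of 25 membrane and pump promoters. The share was 5.1% in all genes tested and 3.4% in the table. The windows of CTSF (chr11:66568703-66568749, minus strand) and GAA (chr17:80101484-80101576, plus strand), the lysosomal alpha-glucosidase, show a single copy and a pair of palindromic copies, counted on each strand. GAA was chosen after its values and letters had been seen, and rose by 1.46 ± 0.11 (0.83 as the mean of its probe sets).
CTSF: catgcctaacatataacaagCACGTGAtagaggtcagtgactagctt
GAA: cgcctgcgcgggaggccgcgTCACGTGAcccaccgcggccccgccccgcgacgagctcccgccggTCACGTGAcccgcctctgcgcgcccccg

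**Figure D4:**
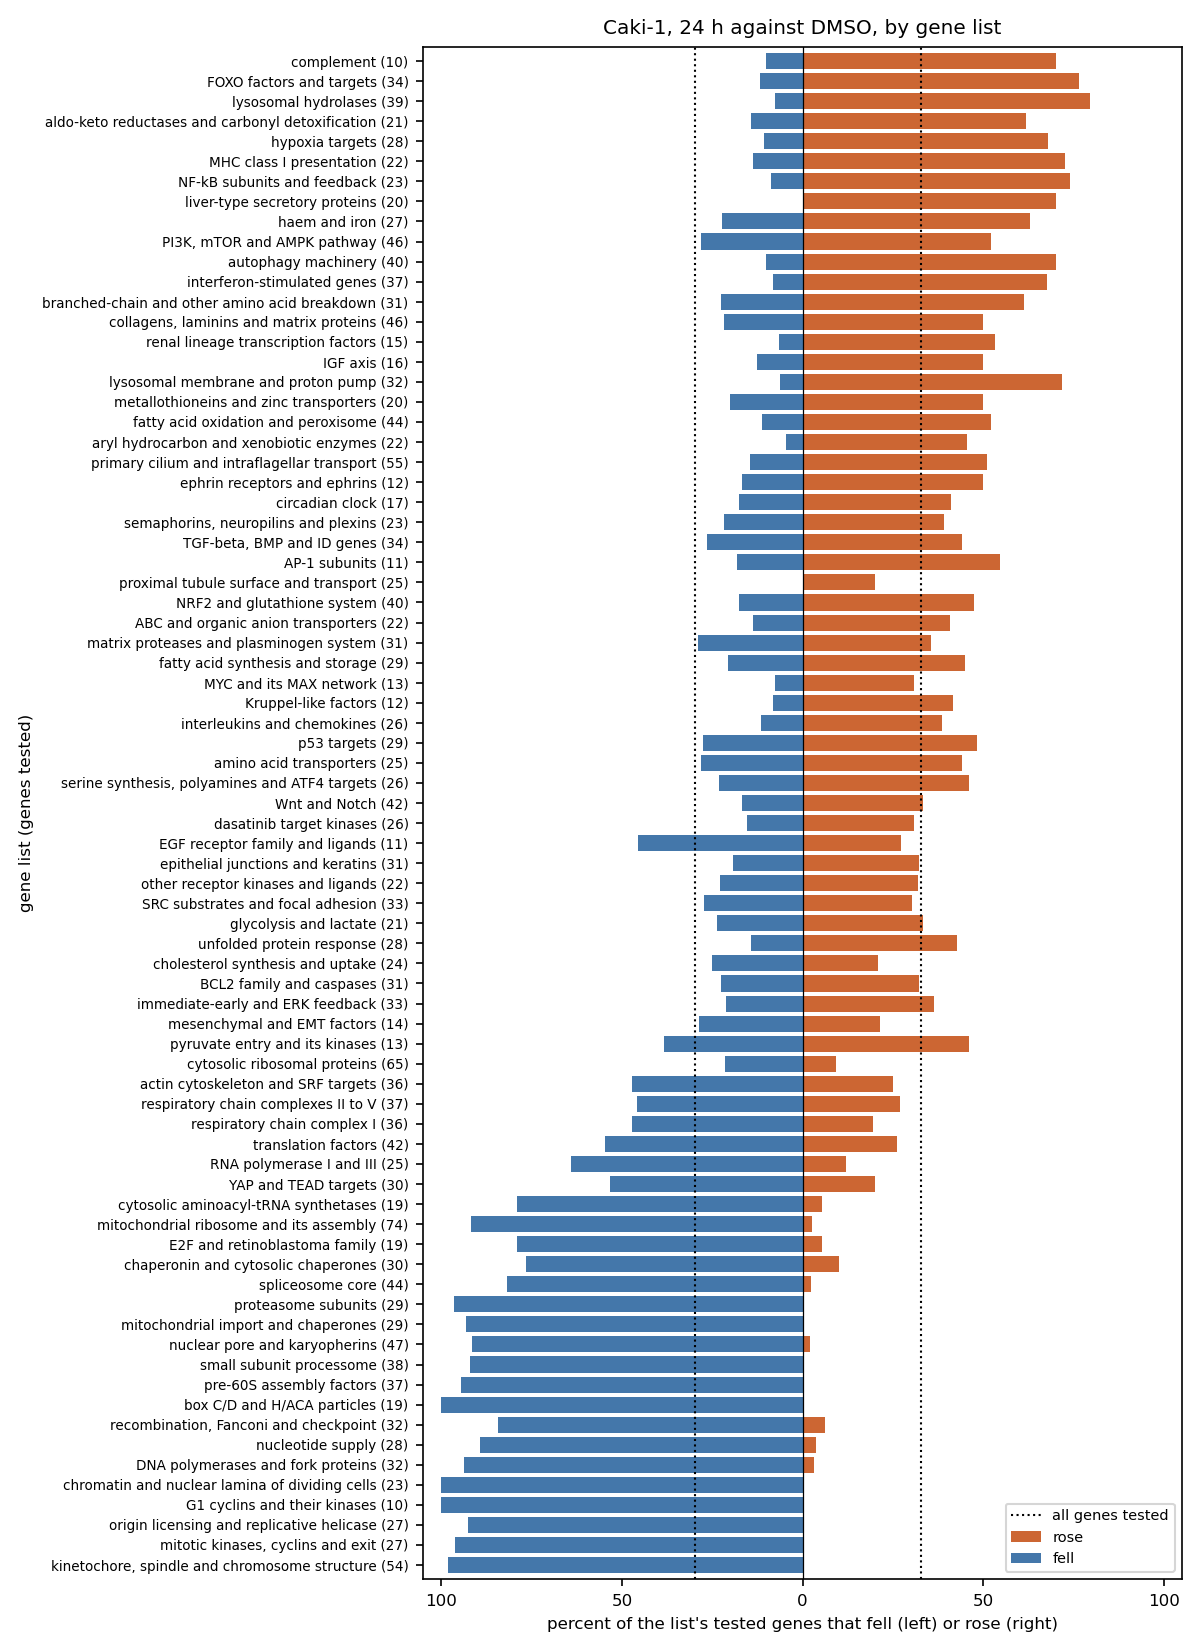
For each of the gene lists with 10 or more tested genes, the bar to the left is the percent of tested genes that fell and the bar to the right the percent that rose at 24 h in Caki-1; dotted lines mark 29.9% and 32.9%, the shares over all genes tested. Lists are ordered by median change. Those of replication, mitosis and ribosome building are at the bottom with almost no rises, and the complement, FOXO and lysosomal hydrolase lists are at the top.

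Dasatinib binds SRC, ABL and a wider set of kinases, and the transcripts of these kinases were examined as a list. Of 26 tested, 8 rose, a number that ranged from 5 to 10 over the alternative settings, and 4 fell, with a median of 0.13 (range 0.07 to 0.17). SRC, the founding member of its family, read 8.20, 8.15 and 8.23 under DMSO and 8.43, 8.23 and 8.13 at 24 h, and the groups overlapped. It was not called, at 0.07 ± 0.10, and neither were YES1, LYN, ABL1, EGFR, FRK, FGR, PTK6, LIMK1, CSF1R, PDGFRB, EPHB1, EPHB4 and EPHA8. EPHA2, an ephrin receptor, fell by 1.52 ± 0.11. LIMK2, which phosphorylates cofilin, fell by 0.97 ± 0.13 (-0.44 as the mean of its probe sets). ABL2 fell by 0.58 ± 0.09 (-0.30 as the mean of its probe sets).

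The rises among them included salt-inducible kinases, which signal to transcription coactivators, and receptors. SIK2 rose by 1.96 ± 0.12 (1.27 as the mean of its probe sets). SIK3 rose by 0.97 ± 0.10. EPHA4, another ephrin receptor, rose by 1.79 ± 0.16. DDR1, a collagen receptor, rose by 1.04 ± 0.16. MAP4K5 rose by 0.51 ± 0.07. CSK, the kinase that switches SRC off, was called at -0.22 ± 0.08, and EPHB3, GAK and RIPK2 at 0.31 ± 0.10, 0.23 ± 0.08 and 0.19 ± 0.08, calls that at least 1 left-out array or another scaling removed.

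Among 33 substrates of SRC and focal adhesion genes 10 rose and 9 fell. These counts lay near the shares over all genes tested, 32.9% risen and 29.9% fallen. ITGA6, a laminin-binding integrin, fell by 2.26 ± 0.18. ITGA3, another, fell by 1.24 ± 0.13 (-0.72 as the mean of its probe sets). CAV1, the caveolar coat protein, fell by 1.01 ± 0.04. TNS2, a tensin, rose by 1.56 ± 0.12.

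Of 30 YAP and TEAD targets 16 fell and 6 rose, with a median of -0.42 (range -0.53 to -0.21). The rises ranged from 4 to 9 over the alternative settings. CCN2, a matricellular growth factor, read 10.19, 10.71 and 10.93 under DMSO and 8.48, 8.51 and 8.48 at 24 h. The treated arrays were all lower than the DMSO arrays. CCN2 fell by 2.12 ± 0.16, with an adjusted p of 1.96e-08 in limma. CCN1, its relative, fell by 2.34 ± 0.22. FJX1 fell by 2.90 ± 0.20. F3, tissue factor, fell by 1.89 ± 0.23 (-1.06 as the mean of its probe sets). AXL, a receptor kinase, fell by 1.28 ± 0.06. IGFBP3 went the other way and rose by 2.51 ± 0.12. TEAD factors read GGAATG, and the CCN2 window (chr6:131951447-131951556, minus strand) holds 3 copies, the reason it is shown.
CCN2: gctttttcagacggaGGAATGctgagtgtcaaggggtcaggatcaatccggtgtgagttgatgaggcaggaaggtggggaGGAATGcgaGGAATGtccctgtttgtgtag

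The same letters stood in 4 of 23 matched promoters of the YAP list and 9.5% of all genes tested. The autophagy list, with 8 of 34, was higher. Actin and SRF genes fell in 17 and rose in 9 of 36 cases, the rises ranging from 5 to 12 over the alternative settings. DIAPH3, a formin, fell by 2.52 ± 0.15. ACTA2, smooth muscle actin, rose by 1.28 ± 0.13 (0.49 as the mean of its probe sets).

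Immediate-early and AP-1 genes did not move in one direction. FOSL1, an AP-1 subunit that depends on lasting ERK activity, read 10.03, 10.36 and 10.37 under DMSO and 7.62, 6.9996 and 7.12 at 24 h. The groups were far apart. FOSL1 fell by 3.003 ± 0.14, with an adjusted p of 2.42e-10 in limma. EGR1, an immediate-early zinc finger factor, read 5.49, 6.05 and 6.03 under DMSO and 9.19, 9.01 and 9.02 at 24 h, with all treated arrays higher. EGR1 rose by 3.22 ± 0.14 (1.95 as the mean of its probe sets), with an adjusted p of 1.49e-10 in limma. Against the same DMSO arrays its difference was 1.15 at 6 h and 2.49 at 12 h.

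Of 11 AP-1 subunits 6 rose and 2 fell. ATF3, a stress factor, rose by 1.01 ± 0.14 (0.35 as the mean of its probe sets). FOSL2, a relative of FOSL1, rose by 0.72 ± 0.09. FOS, the partner of JUN in classical AP-1, rose by 0.47 ± 0.08 (0.85 as the mean of its probe sets). JUNB rose by 0.45 ± 0.09. JUN itself went the other way and fell by 0.59 ± 0.16. JUND and MAFG were called at 0.35 ± 0.11 and 0.20 ± 0.08, the first lost without 24 h replicate 2 and the second under several settings, and FOSB, MAFF and BATF3 were not called. Of 33 genes of the immediate-early and ERK feedback list, 12 rose and 7 fell. DUSP1, a phosphatase of stress kinases, rose by 2.48 ± 0.15 (1.23 as the mean of its probe sets). DUSP6, an ERK phosphatase, rose by 1.496 ± 0.18. DUSP5, another, rose by 1.55 ± 0.17. PHLDA1 fell by 0.82 ± 0.16. ETS1 fell by 0.83 ± 0.08.

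Of 11 EGF receptor family and ligand genes 3 rose and 5 fell. ERBB3, a receptor of the family, rose by 2.27 ± 0.20 (1.19 as the mean of its probe sets). EGF, the ligand that gave the family its name, rose by 0.34 ± 0.10 (0.16 as the mean of its probe sets). Other ligands were among the falls. NRG1, a ligand of ERBB3, fell by 1.94 ± 0.18 (-1.13 as the mean of its probe sets). EREG, which binds EGFR, fell by 1.14 ± 0.11. TGFA, which also does, fell by 0.90 ± 0.11 (-0.46 as the mean of its probe sets). EGFR itself was not called, at 0.16 ± 0.10. Of other receptor kinases and ligands 7 rose and 5 fell of 22, the rises ranging from 4 to 10 over the alternative settings. ROR1 fell by 1.68 ± 0.11. GAS6, the AXL ligand, fell by 1.11 ± 0.11. PROS1, protein S, which also binds AXL relatives, rose by 1.24 ± 0.13 (0.57 as the mean of its probe sets, 1.16 from the filter level). In the IGF axis 8 rose and 2 fell of 16. PAPPA, a protease that frees IGF, rose by 1.56 ± 0.14. Of 14 mesenchymal and EMT factors 3 (range 2 to 6) rose and 4 fell.

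Secreted proteins typical of liver rose in 14 of 20 cases and none fell, though the list had 41 genes on the array and the rest lay below the filter level. Beside RBP4, FGA and FGB, CLU, the chaperone clusterin, rose by 2.58 ± 0.18 (1.42 as the mean of its probe sets). Complement genes rose in 7 of 10 tested cases, with a median of 1.001. That list had 18 genes on the array, and those not tested lay below the filter level. CFI, the protease that inactivates C3b, rose by 2.90 ± 0.30 (2.89 from the filter level). C1S, a protease of the classical pathway, rose by 2.28 ± 0.20. C1R, its partner, rose by 1.87 ± 0.22. CFB of the alternative pathway rose by 1.73 ± 0.25 (1.01 as the mean of its probe sets). CD59 was the called fall, at -0.34 ± 0.06 (0.01 as the mean of its probe sets), a sign that turned with the mean of its probe sets.

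Interferon-stimulated genes rose in 25 of 37 cases, with a median of 0.34. IFITM1 rose by 1.79 ± 0.20. ISG20, an exonuclease, rose by 1.73 ± 0.17 (1.54 from the filter level). IRF9, a subunit of the interferon response factor, rose by 1.62 ± 0.11. TRIM14 fell by 1.49 ± 0.11 (-0.45 as the mean of its probe sets). Class I presentation genes rose in 16 of 22. NLRC5, the activator of class I genes, rose by 1.73 ± 0.09. HLA-E rose by 1.11 ± 0.05. HLA-F rose by 1.35 ± 0.08 (0.89 as the mean of its probe sets). The HLA genes resemble each other closely, so their probe sets can share signal. TAP2, a subunit of the peptide transporter, fell by 0.95 ± 0.08. PSME2, of the immunoproteasome activator, fell by 0.79 ± 0.06.

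NF-kB subunits and feedback genes rose in 17 of 23 cases, with a median of 0.45 (range 0.28 to 0.55). IL1R1, the interleukin 1 receptor, rose by 2.34 ± 0.15 (1.41 as the mean of its probe sets). TNFAIP6 rose by 1.80 ± 0.11. PTGS2, cyclooxygenase 2, rose by 1.34 ± 0.24. BCL3 rose by 1.30 ± 0.12 (0.44 as the mean of its probe sets). Of 26 interleukins and chemokines 10 rose and 3 (range 2 to 5) fell. IL6 rose by 1.26 ± 0.09. IL1A fell by 0.996 ± 0.17 (-0.67 from the filter level). Leukocyte markers had 2 (range 1 to 3) rises and 1 (range 0 to 1) fall among 7. The summed linear signal of all 13 such markers on the array lay between 747 and 772 under DMSO and between 859 and 893 at 24 h. Whether other cells had a part in the immune genes was not tested.

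Epithelial junction and keratin genes had 10 rises and 6 falls among 31, beside 32.9% risen and 29.9% fallen over all genes tested. Beside CDH1, CLDN2, a claudin of leaky tight junctions, rose by 2.09 ± 0.23. JUP, plakoglobin, rose by 1.61 ± 0.08. KRT8, a simple epithelial keratin, fell by 1.004 ± 0.10. KRT18, its partner, fell by 0.82 ± 0.06. SNAI2, a repressor of CDH1, fell by 1.41 ± 0.23. SNAI1, a related repressor, rose by 0.96 ± 0.09. The summed linear signal of the renal epithelial markers was 10101 to 10340 under DMSO and 8437 to 8789 at 24 h.

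Renal lineage factors rose in 8 of 15 cases. IRX3 rose by 1.82 ± 0.10. PPARA, a sensor of fatty acids, rose by 1.61 ± 0.16 (0.59 as the mean of its probe sets). GATA3 rose by 1.44 ± 0.09. LHX1, a factor of the early kidney, fell by 1.53 ± 0.11 (-0.86 as the mean of its probe sets). Of 25 proximal tubule surface and transport genes 5 rose and none fell, the rises ranging from 4 to 10 over the alternative settings. Over all genes tested 32.9% rose. SLC23A1, a vitamin C carrier, rose by 2.95 ± 0.25 (1.23 as the mean of its probe sets). DPP4, a brush border peptidase, rose by 1.25 ± 0.08.

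Matrix genes rose in 23 and fell in 10 of 46 cases. LUM, the proteoglycan lumican, rose by 2.27 ± 0.18 (2.003 from the filter level). DCN, decorin, rose by 1.93 ± 0.20 (1.53 from the filter level). COL7A1, anchoring fibril collagen, rose by 1.66 ± 0.14. COL1A1 rose by 1.05 ± 0.15 (0.24 as the mean of its probe sets). THBS1, thrombospondin 1, fell by 2.19 ± 0.23. EFEMP1 fell by 1.75 ± 0.25. LUM, DCN and COL1A1 are also markers of fibroblasts, and with PDGFRB, at -0.08 ± 0.12, they were the 4 of 10 such markers above the filter level. The summed linear signal of all 10 fibroblast markers on the array was 380 to 389 under DMSO and 689 to 756 at 24 h. The part of these markers in the matrix result was not tested.

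Matrix proteases had 11 rises and 9 falls among 31. MMP2, a gelatinase, rose by 1.76 ± 0.10 (1.13 as the mean of its probe sets). ADAMTS6 fell by 2.38 ± 0.12 (-1.28 as the mean of its probe sets). PLAT, the tissue plasminogen activator, fell by 1.93 ± 0.20. MMP1 was called at -1.56 ± 0.47 (-1.13 from the filter level), a call lost without 24 h replicate 3. Among 34 TGF-beta, BMP and ID genes 15 rose and 9 fell. ID1 rose by 1.28 ± 0.05. ID2 rose by 1.43 ± 0.16. GREM1, a BMP antagonist, fell by 1.20 ± 0.16. Of 42 Wnt and Notch genes 14 rose, ranging from 8 to 16 over the alternative settings, and 7 fell. The shares over all genes tested were 32.9% risen and 29.9% fallen. DKK1, a Wnt antagonist, fell by 2.41 ± 0.17. SFRP1, another, fell by 1.62 ± 0.19 (-0.51 as the mean of its probe sets). HES1, a Notch target, rose by 1.46 ± 0.15 (0.62 as the mean of its probe sets).

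Metallothioneins hold zinc and copper in the cell. Of 20 metallothioneins and zinc transporters 10 rose and 4 (range 2 to 4) fell, with the rises ranging from 5 to 12 over the alternative settings. Against the 4.50 ± 0.20 of MT1F, MT1H, MT1X and MT1E were called at 0.91 ± 0.37 (0.35 from the filter level), 0.64 ± 0.20 and 0.54 ± 0.22 and lost their calls under at least 1 alternative. MT2A was called lower, at -0.12 ± 0.04 (-0.04 as the mean of its probe sets), and lost its call under several. MT1G, MT1M, MT1B and MT3 were not called. MTF1, the zinc-sensing factor of these genes, rose by 0.57 ± 0.07 (0.17 as the mean of its probe sets). SLC30A1, the zinc exporter it controls, rose by 0.74 ± 0.12. SLC39A14, a zinc importer, rose by 0.99 ± 0.05 (0.27 as the mean of its probe sets). SLC39A8, another, fell by 1.08 ± 0.08 (-0.39 as the mean of its probe sets). SLC39A4 fell by 0.87 ± 0.07. SLC39A10 and SLC39A7 were not called.

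Aldo-keto reductases and aldehyde dehydrogenases rose in 13 of 21 cases, with a median of 0.63 (range 0.34 to 0.68). AKR1C1 read 7.13, 7.66 and 7.56 under DMSO and 10.93, 11.76 and 11.77 at 24 h, without overlap, and its adjusted p was 1.48e-08 in limma. AKR1C2 rose by 3.11 ± 0.37 (1.29 as the mean of its probe sets). AKR1C3 rose by 2.08 ± 0.09 (1.08 as the mean of its probe sets). These reductases are near-identical in sequence, so their probe sets can share signal. ALDH2 rose by 2.13 ± 0.16. ALDH6A1 rose by 1.75 ± 0.11. ALDH1B1 fell by 1.49 ± 0.17.

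NRF2 and glutathione genes rose in 19 and fell in 7 of 40. HMOX1, haem oxygenase 1, rose by 1.99 ± 0.17. NFE2L2, which encodes NRF2, rose by 1.02 ± 0.05. ABCC3, a conjugate exporter, rose by 2.13 ± 0.22. CHAC2, a glutathione-degrading enzyme, fell by 2.76 ± 0.15. GCLM, of glutathione synthesis, fell by 0.71 ± 0.12. Haem and iron genes rose in 17 of 27 cases. SLC40A1, the iron exporter ferroportin, rose by 1.59 ± 0.20 (1.24 from the filter level). TFRC, the transferrin receptor, fell by 0.92 ± 0.08. Xenobiotic enzymes rose in 10 of 22. EPHX2, soluble epoxide hydrolase, rose by 2.08 ± 0.15 (1.92 from the filter level). CYP1A1 fell by 0.57 ± 0.15 (-0.31 as the mean of its probe sets).

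Lipid genes were counted by pathway. Fatty acid oxidation and peroxisome genes rose in 23 and fell in 5 (range 5 to 9) of 44 cases. CPT1A, the gate of mitochondrial oxidation, rose by 1.27 ± 0.13. CAT, catalase, rose by 1.31 ± 0.07. Synthesis and storage genes rose in 13 and fell in 6 of 29. PLIN2, the coat of lipid droplets, rose by 2.22 ± 0.13. ACSL4, an acyl-CoA synthetase, rose by 1.66 ± 0.12. FASN, fatty acid synthase, fell by 0.70 ± 0.10. ACACA, which makes its substrate, fell by 0.68 ± 0.12 (-0.38 as the mean of its probe sets). Cholesterol genes had 5 rises and 6 falls among 24. FDPS fell by 1.05 ± 0.07. EBP fell by 1.07 ± 0.07.

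Amino acid breakdown genes rose in 19 and fell in 7 of 31. CTH, of cysteine synthesis, rose by 2.71 ± 0.24. HIBADH, of valine breakdown, rose by 1.27 ± 0.09. BCAT1, a branched-chain transaminase, fell by 0.91 ± 0.14. The serine, polyamine and ATF4 list rose in 12 and fell in 6 of 26. ODC1, the rate-limiting enzyme of polyamine synthesis, fell by 2.09 ± 0.10. SRM, spermidine synthase, fell by 1.43 ± 0.06. SAT1, which acetylates polyamines for removal, rose by 1.65 ± 0.10. NUPR1 rose by 2.64 ± 0.16. ASNS, asparagine synthetase, fell by 1.08 ± 0.16. Among amino acid transporters 11 rose, ranging from 7 to 11 over the alternative settings, and 7 fell of 25. SLC7A1, a cationic carrier, fell by 1.08 ± 0.11 (-0.54 as the mean of its probe sets). SLC1A1, a glutamate carrier, rose by 1.10 ± 0.10.

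Death, stress and clock genes went both ways. BCL2 family and caspase genes had 10 rises and 7 falls among 31, beside 32.9% risen and 29.9% fallen over all genes tested. BMF, a BH3-only protein, rose by 1.10 ± 0.16 (0.48 as the mean of its probe sets). PMAIP1, the BH3-only protein NOXA, fell by 1.34 ± 0.15. BCL2L1, encoding BCL-XL, fell by 0.73 ± 0.10. Among 29 p53 targets 14 rose and 8 fell. GDF15 rose by 1.37 ± 0.12. TIGAR fell by 1.63 ± 0.13 (-0.89 as the mean of its probe sets). The unfolded protein response had 12 rises and 4 (range 3 to 7) falls among 28. DNAJB9 rose by 1.41 ± 0.14. Of 17 clock genes 7 rose and 3 fell. CRY1 fell by 1.61 ± 0.11. NFIL3 rose by 1.75 ± 0.09. Of 12 Kruppel-like factors 5 (range 3 to 6) rose and 1 (range 1 to 2) fell. KLF9, a target of glucocorticoid receptor, rose by 1.06 ± 0.12 (0.47 as the mean of its probe sets, 0.48 from the filter level). KLF2 fell by 1.04 ± 0.08 (-0.56 as the mean of its probe sets). Smaller rises followed in the family. KLF3 rose by 0.75 ± 0.09 (0.35 as the mean of its probe sets). KLF12 rose by 0.54 ± 0.11 (0.30 as the mean of its probe sets). KLF13 rose by 0.51 ± 0.15 (0.22 as the mean of its probe sets, 0.47 from the filter level). KLF10 was called at 0.22 ± 0.08, a call that several settings removed, and KLF4, KLF5, KLF6, KLF7, KLF11 and KLF16 were not called.

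Primary cilium and intraflagellar transport genes, which build the antenna of resting cells, rose in 28 and fell in 8 (range 5 to 10) of 55 cases. WDR19 rose by 1.62 ± 0.12 (0.87 as the mean of its probe sets). BBS1 rose by 1.45 ± 0.09 (0.35 as the mean of its probe sets). PKD1, polycystin 1, rose by 1.22 ± 0.12. GLI2, an effector of Hedgehog signals, fell by 1.06 ± 0.12 (-0.06 as the mean of its probe sets). Semaphorins and plexins had 9 rises and 5 (range 3 to 5) falls among 23. PLXNA3 rose by 1.22 ± 0.11. Ephrins and their receptors had 6 rises and 2 falls among 12. EFNA1 rose by 1.57 ± 0.11. EFNB3 rose by 1.33 ± 0.16 (0.57 as the mean of its probe sets). ABC and organic anion transporters had 9 rises and 3 (range 2 to 6) falls among 22. ABCA5 rose by 1.85 ± 0.11 (1.17 as the mean of its probe sets). Endothelial markers had 2 (range 0 to 3) rises among 4. PECAM1 rose by 0.89 ± 0.13 (0.55 as the mean of its probe sets).

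The 24 h arrays were next set against the 12 h arrays, a contrast that holds no DMSO array. In limma 1359 genes were higher at 24 h (10.9%) and 1768 lower (14.2%), 25.2% of those tested. Without 12 h replicate 1, 817 were higher. Among the mitotic lists 53 of 54 kinetochore genes and 25 of 27 mitotic kinases and cyclins were lower at 24 h than at 12 h. DEPDC1B, a mitotic regulator of adhesion, read 9.87, 9.47 and 9.38 at 12 h and 7.14, 6.47 and 6.53 at 24 h. The times did not overlap, which the choice of genes named in this contrast required. DEPDC1B fell by 2.86 ± 0.16 between the times, with an adjusted p of 2.31e-08 in limma.

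The next largest falls between the times were also of mitotic genes. SPC25 fell by 2.79 ± 0.16. DLGAP5, a spindle assembly factor, fell by 2.74 ± 0.21. KIF14, a kinesin of cytokinesis, fell by 2.74 ± 0.18. KIF20A, another, fell by 2.70 ± 0.19. Relative to DMSO, KIF20A differed by 0.70 at 6 h and 0.64 at 12 h and fell by 2.06 ± 0.19 at 24 h. The differences of DLGAP5 were 0.21 at 6 h and 0.16 at 12 h, and it fell by 2.58 ± 0.21 at 24 h. Those of CDK1 were -0.05 at 6 h and -0.73 at 12 h.

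Replication genes were lower at 24 h than at 12 h too, 24 of 27 of the licensing list and 28 of 32 of the polymerase list. Against the DMSO arrays, which the 3 times share, the licensing list had a median of -0.20 at 6 h, -1.14 at 12 h and -1.98 at 24 h. The kinetochore list had 0.10, -0.32 and -2.20 at the same times. At 12 h, when 48.4% of all genes tested were called against DMSO and 24.4% were lower, 24 of the licensing list and 27 of the kinetochore list had fallen. The pre-60S factors had -0.48, -0.84 and -0.92, and 9 of 37 were lower at 24 h than at 12 h. Proteasome genes had 0.02, -0.32 and -0.73, and 26 of 29 were lower at 24 h than at 12 h.

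**Figure D5:**
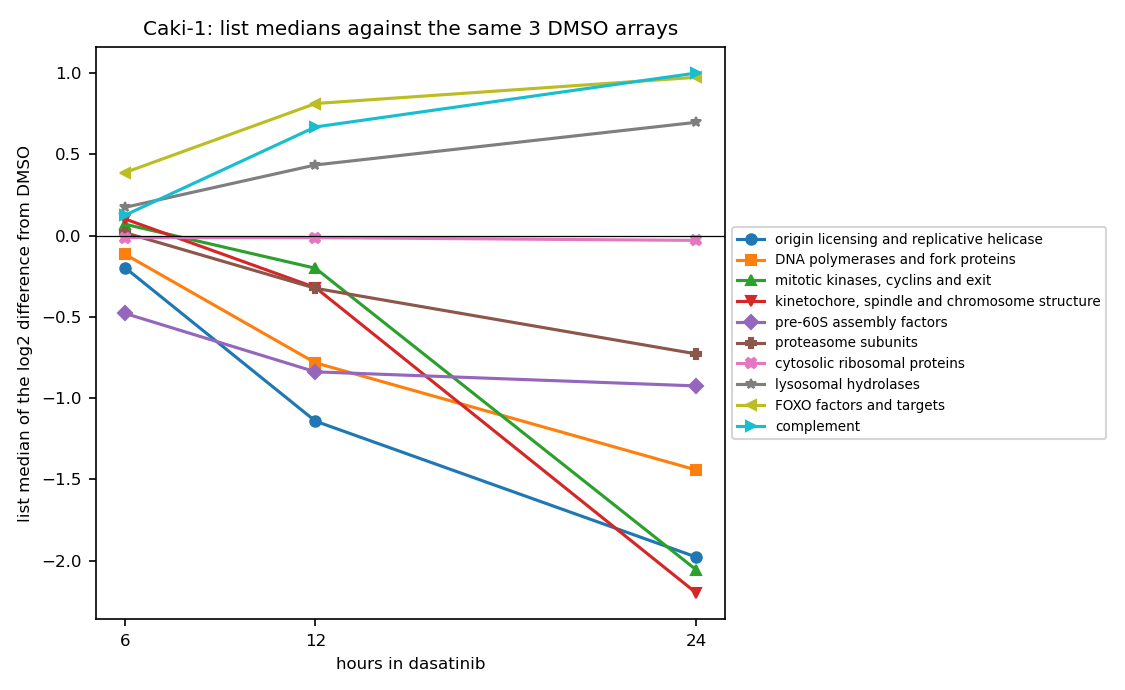
Median log2 difference from DMSO of 10 gene lists in Caki-1 at 6, 12 and 24 h of dasatinib; the same 3 DMSO arrays serve all times, and lines join the medians. The licensing list is lowest at 12 h, the kinetochore and mitotic kinase lists go from near 0 at 6 h to the lowest medians at 24 h, and the pre-60S list changes little after 12 h.

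Genes higher at 24 h than at 12 h included secreted defence proteins. DEFB1, a renal beta-defensin, read 5.91, 5.86 and 5.50 at 12 h and 8.46, 7.14 and 7.21 at 24 h. The times did not overlap. It was higher by 1.85 ± 0.28, with an adjusted p of 0.000205 in limma. CFI was higher by 1.61 ± 0.30, with 12 h arrays at 5.64, 7.09 and 7.25. MATN2, a matrix protein, was higher by 1.38 ± 0.22, with 12 h arrays at 7.17, 8.05 and 8.09. CAMP, the cathelicidin peptide, was higher by 1.31 ± 0.18. CTSF was higher by 1.29 ± 0.24, with 12 h arrays at 6.71, 7.60 and 7.44. In CFI, MATN2, CAMP and CTSF the lowest 12 h array was replicate 1, and in DEFB1 that array was the highest. This is the array without which 817 genes were higher, so the sizes of these rises rest partly on it. Of the lysosomal hydrolases 20 of 39 were higher at 24 h than at 12 h, and of the FOXO list 17 of 34.

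The 24 h change was last compared with that of 769-P cells, by the difference of the differences over all 24 arrays. Of 12862 genes tested, 1780 (13.8%) had a higher change in Caki-1 and 2848 (22.1%) a lower one, 36.0% in all, in limma. In 769-P alone, 55.7% of 12350 genes tested were called at 24 h. In 424 genes the lines had called changes of opposite direction with a called difference. Of these, 367 had no overlap in either line and a higher group mean above 6.06 in each line. DNER, a Notch ligand-like membrane protein, had the most negative difference of the 367 as deposited. In Caki-1 it read 7.08, 7.19 and 7.07 under DMSO and 6.09, 5.81 and 5.58 at 24 h. In 769-P it read 4.30, 4.02 and 4.22 under DMSO and 7.88, 7.84 and 7.32 at 24 h. The Caki-1 arrays fell and the 769-P arrays rose, without overlap in either line, as the choice of these genes required. The DMSO arrays of 769-P lay below the filter level of that line, 5.36. The changes were -1.28 ± 0.19 (-0.79 as the mean of its probe sets) and 3.50 ± 0.21 (2.32 from the filter level), and their difference was -4.78 ± 0.30 (-3.60 from the filter level) with an adjusted p of 2.97e-11.

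Other genes fell in Caki-1 and rose in 769-P. COL5A2, a fibrillar collagen, changed by -1.46 ± 0.08 (-0.89 as the mean of its probe sets) in the Caki-1 arrays and by 1.54 ± 0.14 (1.502 from the filter level) in those of 769-P. ALDH1A3, which makes retinoic acid, changed by -1.84 ± 0.09 and 0.91 ± 0.26. CCDC150 changed by -1.20 ± 0.16 (-0.37 as the mean of its probe sets, -1.08 from the filter level) and 2.13 ± 0.12. DIXDC1, a Wnt pathway protein, changed by -0.23 ± 0.08 and 2.46 ± 0.25 (1.97 from the filter level), and its Caki-1 call was lost under several alternatives.

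The opposite pattern was led by MFSD12, a lysosomal cysteine carrier, at 2.76 ± 0.09 in the Caki-1 arrays against -0.25 ± 0.10 in those of 769-P. KYNU, of tryptophan breakdown, changed by 2.15 ± 0.37 (1.09 as the mean of its probe sets) and -0.71 ± 0.16. TMCC3 changed by 1.49 ± 0.11 and -0.90 ± 0.19. CGNL1, a junction protein, changed by 0.94 ± 0.16 (0.57 as the mean of its probe sets) and -1.36 ± 0.16. AMIGO2, an adhesion protein, changed by 0.15 ± 0.05 and -2.10 ± 0.20, and its Caki-1 call too was lost under several alternatives.

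Of 4 genes described above and chosen after their values were seen, PDK4, MT1F and FOXO1 differed between the lines by this test and CDKN1C was not past the threshold. PDK4 changed by 1.18 ± 0.30 (0.31 from the filter level) in 769-P, a difference of 4.06 ± 0.46 (4.11 from the filter level) with an adjusted p of 2.78e-07 in limma. CDKN1C changed by 2.60 ± 0.29 in 769-P, a difference of 1.01 ± 0.42 with an adjusted p of 0.0644. MT1F changed by 3.30 ± 0.28 in 769-P, a difference of 1.20 ± 0.38 with an adjusted p of 0.0169. FOXO1 changed by 0.91 ± 0.09 in 769-P, a difference of 2.20 ± 0.13 with an adjusted p of 7.87e-12. For the replication and mitotic lists the values stood side by side: the licensing list had a median of -1.98 in Caki-1 and -1.997 in 769-P, and the kinetochore list -2.20 and -2.72. The mitochondrial ribosome had -0.58 and -0.24, and class I presentation 0.46 and 0.07. These differences between list medians were not tested.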

How the data were processed

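RNA from each culture was labelled with biotin by 3′ in vitro transcription and hybridised to an Affymetrix PrimeView array, per the labels. The values used are the log2 signals per probe set deposited by the authors. The submitters' processing notes name MAS5, with no version and no settings, so how the authors set background and scaling is not given in the sources used here, and the values were used as deposited. MAS5 in its usual form uses mismatch probes, which PrimeView does not carry, so that the summary behind these values is not settled here. Of 49395 probe sets, 102 were controls, 44994 had 1 gene in the platform annotation, 1832 had several and 2569 were not listed. Symbols were updated by Entrez ID to RefSeq, and each gene was represented by its single-gene probe set with the highest mean over all 24 arrays. Genes were tested where their mean over the 12 Caki-1 arrays exceeded the 40th percentile of all probe set means, 5.38. A limma model (limma 3.58.1, R 4.3.3) with group means was fitted to those 12 arrays, with an intensity trend and 8 residual degrees of freedom. Benjamini-Hochberg adjustment ran over all genes tested, and calls were made under 0.05. The difference between the lines was fitted on 24 arrays. Tables were handled in Python 3.11.15 with pandas 2.3.3, and the fit was tested on simulated data.

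The genes named are the 10 largest rises and falls, up to 4 called members with the largest rise and fall of each of 81 gene lists, every member of 10 small lists, and the 5 largest each way of the other contrasts; those outside are marked as chosen after their values were seen. Some genes that this rule names are not reported here. Members and lists were chosen with earlier results of these data known. Lists are described by counts and medians, without a test. Promoters came from a RefSeq table on GRCh38.p14. Alternatives were other scalings, filters, probe set choices, array weights, arrays fitted and each array left out. Genes without an annotated probe set were not analysed here.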

Additional observations from a re-analysis of the deposited data

Results flagged for a closer look

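The 10 genes reported for the difference between the lines had a called change in Caki-1, a called change of the opposite direction in 769-P, and a called interaction in limma over all 24 arrays. These were conditions of their choice, as was no overlap between the groups in either line. The interaction, Caki-1 minus 769-P, was -4.78 for DNER, -3.33 for CCDC150, -3.01 for COL5A2, -2.75 for ALDH1A3 and -2.69 for DIXDC1. It was 3.01 for MFSD12, 2.85 for KYNU, 2.39 for TMCC3, 2.30 for CGNL1 and 2.25 for AMIGO2. In DIXDC1 and AMIGO2 nearly all of it came from 769-P, where the changes were 2.46 ± 0.25 (1.97 from the filter level) and -2.10 ± 0.20. In MFSD12 nearly all of it came from Caki-1, with -0.25 ± 0.10 in 769-P. Counted from the filter level, the interaction was -3.60 for DNER, -3.21 for CCDC150, -2.97 for COL5A2 and -2.20 for DIXDC1.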

How the results depend on the processing

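Over 17 alternatives, rises at 24 h ranged from 3442 to 4597 and falls from 3375 to 4023. Rises outnumbered falls as deposited (4083 and 3716), but with each array centred on its median there were 3442 rises and 4023 falls, the median of all genes tested having been 0.08 before centring. Same-numbered DMSO and 24 h arrays had deviations from their group means that correlated at 0.05, 0.12 and 0.14. Here each array correlated best with its own number, a hint from the data and not from the design. Between 12 h and 24 h this held for replicate 1, at 0.35 with its own number, but not for replicates 2 and 3. The 12 h replicate 2 correlated at 0.22 with 24 h replicate 3 and at 0.07 with its own number. The 12 h replicate 3 correlated at 0.21 with 24 h replicate 2 and at 0.15 with its own number. The numbers were not taken as pairs. With a replicate block there were 4170 rises and 3812 falls. Leaving out 1 array gave 3509 to 4031 rises and 3406 to 3728 falls. Genes higher at 24 h than at 12 h numbered 817 to 1231 with 1 array left out, against 1359; the lowest count was without 12 h replicate 1, and this was the only count over all genes tested to move by over 1.5 times; list counts and medians that did so carry a range in the text. Of 551 called genes named by the rule, 497 kept direction and call under every alternative that tested them, 53 lost the call under 1 or more, and 7 turned in sign. With the mean of all probe sets the values were 0.0135 for CD59, 0.041 for HYOU1, -0.22 for MLX (a rule gene not called as deposited), -0.34 for RPS25, -0.0542 for SLC30A5, -0.0537 for SLC30A9 and 0.0028 for SLC39A6. With the brightest probe set in Caki-1, ABCB1 was 0.38. The cause was not tested. Of 81 list medians 72 kept their sign under all alternatives, and none of the 39 beyond 0.3 in size turned. Each group held 3 arrays, and genes under the filter level, 5.38, were not tested, so that small changes and dim genes are limited by signal over background.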
